A study of Homo sapiens with 6 samples.

Results

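Gene expression was compared in H660 cells that received 1 of 2 siRNAs against PLXND1 or a control siRNA. These are 3 of the 6 messenger RNA libraries of the series. The other 3 libraries are of C4-2B MDVR, an enzalutamide-resistant prostate cancer line, treated in the same way. H660 (NCI-H660) represents neuroendocrine prostate cancer, a form in which tumour cells carry neuronal and endocrine markers. Each treatment in H660 has 1 library: control siRNA, PLXND1 siRNA 1 and PLXND1 siRNA 2. Both siRNAs are therefore compared with the same control library, and a feature of that library enters both differences. No further genotype, drug, dose or time is given in the labels for these 3 libraries, and they do not say whether the libraries came from separate cultures. The p-values therefore measure only a spread between libraries, which may be technical. That spread is taken from the knockdown pairs of both lines. The sequences of the siRNAs are not given in the sources used here.

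The genes described are the 13946 of 58735 whose level, as FPKM (fragments normalised for exon length and library size), averaged at least 1 over the 3 H660 libraries. At the edge of that threshold, ESYT3 was just inside with a mean FPKM of 1.00 and POPDC3 just outside with 0.999. Differences are on the log2(FPKM + 1) scale, which understates the change of genes at low FPKM, and are siRNA minus control throughout.

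Plexin D1, the product of PLXND1, is a single-pass receptor for class 3 semaphorins and for semaphorin 4A, with or without neuropilins as co-receptors. Its cytoplasmic part holds a GTPase-activating domain for Ras and Rap proteins and a site for other small GTPases, through which plexins turn semaphorin binding into loss of adhesion and a changed actin skeleton. The receptor is best known from the guidance of blood vessels and axons. An siRNA directs the RNA interference machinery to a messenger RNA, so the level of the targeted messenger RNA is the first check of the experiment.

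The H660 libraries held 22884829 fragments in the control, 21911440 with siRNA 1 and 24105369 with siRNA 2, and 8.58%, 9.47% and 9.64% of them fell on mitochondrial genes. The number of genes above 0 was highest in the control, with 25268 against 23511 and 24234. The labelled identity was checked against marker genes. NKX2-1, a transcription factor found in neuroendocrine tumours, was at 184 FPKM in the control and the neuroendocrine enzyme UCHL1 at 170 FPKM. KLK3, a marker of luminal prostate cells, was at 0.10 FPKM or less, and NEUROD1, a neuroendocrine factor, was at 0.05 FPKM or less. By count the markers were thus mixed: 15 of 27 neuroendocrine transcription factors, 29 of 39 neuroendocrine secretory and synaptic genes and 22 of 38 genes of the luminal list reached a mean FPKM of 1. The luminal list includes KRT8, a simple-epithelial keratin, at 236 FPKM in the control. Summed over each list in the same order, the H660 control was at 1054, 1015 and 702 FPKM and the C4-2B MDVR control at 67.8, 159 and 2970 FPKM. Of 20 markers of stromal, endothelial and leukocyte cells, 3 reached a mean FPKM of 1. These were CDH5 at 9.93 FPKM in the control, CD14 at 1.80 FPKM and COL1A1 at 1.44 FPKM, while PECAM1, PTPRC and PDGFRB, which define endothelial, leukocyte and mural cells, were at 0.04 FPKM or less in every library. In bulk RNA, fewer cells of a type and less RNA per cell cannot be told apart.

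PLXND1 was lower with both siRNAs, but by little. The gene (ENSG00000004399, chr3:129555175-129606818 on the minus strand of GRCh38, from the GENCODE 29 annotation) was at 9.13 FPKM in the control, 7.62 FPKM with siRNA 1 and 7.54 FPKM with siRNA 2. The knockdown libraries thus lay close together, at 83.5% of the control (95% exact binomial interval 78.3% to 88.9%) and 82.6% (77.6% to 87.9%), and both intervals, which cover counting error only, stay below the control. The mean difference was −0.24 ± 0.31 (SE) and did not pass limma's moderated test with Benjamini-Hochberg adjustment (adjusted p = 1.00). Of the 13946 genes tested, 1705 had a more negative mean difference than PLXND1. In C4-2B MDVR the same labels went with 7.40 FPKM in the control, 1.57 FPKM with siRNA 1 and 3.10 FPKM with siRNA 2. That knockdown pair lay farther apart than the H660 pair. The SE above is pooled over the knockdown pairs of both lines, so it is not a measure of the H660 spread alone. The difference of the effect between the lines was 1.13 ± 0.44 (SE) and did not pass limma's interaction test (adjusted p = 0.980).

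The other plexins were lower as well. Of 9 plexin genes, 6 reached a mean FPKM of 1, and all 6 lay below the control with both siRNAs, where 39.2% of all genes tested did. PLXNB2, a receptor for class 4 semaphorins, was the highest of the family at 44.2 FPKM in the control, 40.1 FPKM with siRNA 1 and 38.2 FPKM with siRNA 2. PLXNB1, the receptor for semaphorin 4D, was at 22.6, 20.9 and 20.2 FPKM in the same order. PLXNA2 was at 14.8, 12.7 and 11.5 FPKM, PLXNA1 at 10.4, 8.88 and 8.73 FPKM and PLXNA3 at 6.04, 4.60 and 4.77 FPKM. These class A plexins work with neuropilins in signalling by class 3 semaphorins. Over the 6 genes the mean of the knockdown libraries ran from 77.6% to 90.8% of the control, and 2 of them, PLXNA3 and PLXNA2, had a larger decrease than the targeted gene. The median difference of the family was −0.23, against −0.02 over all genes tested. No member passed limma, and the decrease of PLXND1 therefore lay inside the range of plexins that the siRNAs do not name.

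**Figure D1:**
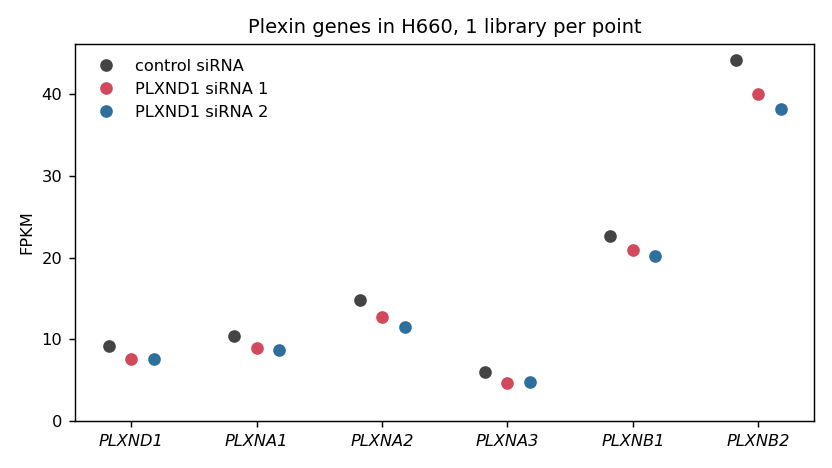
Level of the 6 plexin genes with a mean of at least 1 FPKM in H660 (vertical axis, FPKM), with 1 point for each library. The control is the highest point for every gene, and PLXND1 (9.13, 7.62 and 7.54 FPKM) kept 83.5% and 82.6% of its control level.

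Ligands and co-receptors had small differences too. Of 20 semaphorin genes, 10 were measured, 7 of them below the control with both siRNAs and none above with both, with a median of −0.17. SEMA4B, the highest semaphorin, was at 29.3 FPKM in the control and 25.8 FPKM with each siRNA, and SEMA3F, a secreted class 3 ligand, was at 5.04, 3.11 and 4.35 FPKM. Among the co-receptors, NRP2 was at 5.39, 4.74 and 4.96 FPKM and the adhesion receptor ITGB1 at 80.2, 84.0 and 76.6 FPKM. Of 37 genes through which plexins signal, 31 were measured, with 9 above, 17 below and a median of −0.08. For the counts of both lists, 33.9% of all genes tested were above the control with both siRNAs and 39.2% below. RND3, a small GTPase of actin organisation, stood highest among them at 5.79, 9.03 and 9.97 FPKM, and CFL1, the actin-severing cofilin, was at 80.2, 67.2 and 66.1 FPKM. No gene of these 3 groups passed limma.

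Across all genes, 1 passed. MT-TR, the mitochondrial tRNA for arginine (65 bases), had no fragment in the control, 51 fragments (33.4 FPKM) with siRNA 1 and 55 fragments (32.8 FPKM) with siRNA 2. It rose at least 17.9-fold with siRNA 1 and at least 17.6-fold with siRNA 2 against a floor of 3 fragments in the control library (limma, adjusted p = 0.0467). It did not pass with voom, without either of the 2 H660 siRNA libraries, or once a trend on transcript GC content was taken out of each library (limma, adjusted p = 0.0819). In C4-2B MDVR it was at 23.7 FPKM in the control, 21.4 with siRNA 1 and 26.5 with siRNA 2, so of the 6 libraries the H660 control alone was at 0. Transfer RNAs are short and are not targets of messenger RNA library preparation. Of the 22 mitochondrial tRNA genes 20 were measured, and 1 was at least 1.5-fold higher with both siRNAs and 1 lower. MT-TR was singled out after its values were seen, and it is 0.00717% of the genes tested. At an unadjusted p under 0.05 limma gave 659 genes, 469 of them higher and 190 lower, where 5% of all genes tested is 697. limma's voom on fragment numbers recovered from the FPKM values passed 0 genes, with 517 at an unadjusted p under 0.05.

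Since only 1 control library exists, genes were also ranked by size alone, taking those that differed from the control by at least 1.5-fold in the same direction with both siRNAs. This is a description of 3 libraries, and the shared control places genes in both differences at once. Over all genes, 259 (1.86%) were higher with both siRNAs and 109 (0.782%) lower. Many had few fragments: genes averaging under 50 fragments made up 84 of those higher and 92 of those lower. Among the 11335 nuclear protein-coding genes of at least 50 fragments, 150 (1.32%) were higher and 5 (0.0441%) lower. None of these differed by 1.5-fold in opposite directions with the 2 siRNAs. The typical protein-coding gene moved little, with a median absolute difference of 0.140 between siRNA 1 and control, 0.137 between siRNA 2 and control, and 0.107 between the siRNAs.

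The genes higher with both siRNAs had one property in common, a low share of G and C bases in their transcripts. Their median GC content was 36.9%, against 48.9% over all 11335 genes, and 145 of the 150 lay below that median. The lowest decile of genes by GC content (30.2% to 38.7%) held 108 of the 150. In that decile the median difference was 0.33 with siRNA 1 and 0.25 with siRNA 2. In the highest decile it was −0.13 with siRNA 1 and 0.01 with siRNA 2. The 2 knockdown libraries also differed from each other along GC content. The median of siRNA 1 minus siRNA 2 ran from 0.10 in the lowest decile to −0.12 in the highest. In the lowest decile this was less than either difference from the control. In the highest it was about as large as that of siRNA 1 and larger than that of siRNA 2. In C4-2B MDVR the lowest decile had medians of −0.01 and 0.01. Grouping by transcript length or by control level gave at most 22 and 24 of the 150 genes in 1 decile. When a smooth trend on GC content was taken out of each library, a setting chosen after the data were seen, 51 protein-coding genes (0.450%) were at least 1.5-fold higher with both siRNAs, 45 of them among the 150. The lower genes then numbered 6, 3 of them among the 5, and limma passed 0 genes, with 426 at an unadjusted p under 0.05. By the same correction the difference of PLXND1 became −0.17, the plexin median −0.16, the semaphorin median −0.12 and that of plexin effectors −0.05, with PLXNB1 at −0.06, PLXNB2 at −0.10, SEMA4B at −0.11 and NRP2 at −0.07. For some further genes and lists, the GC-corrected value stands beside their levels.

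**Figure D2:**
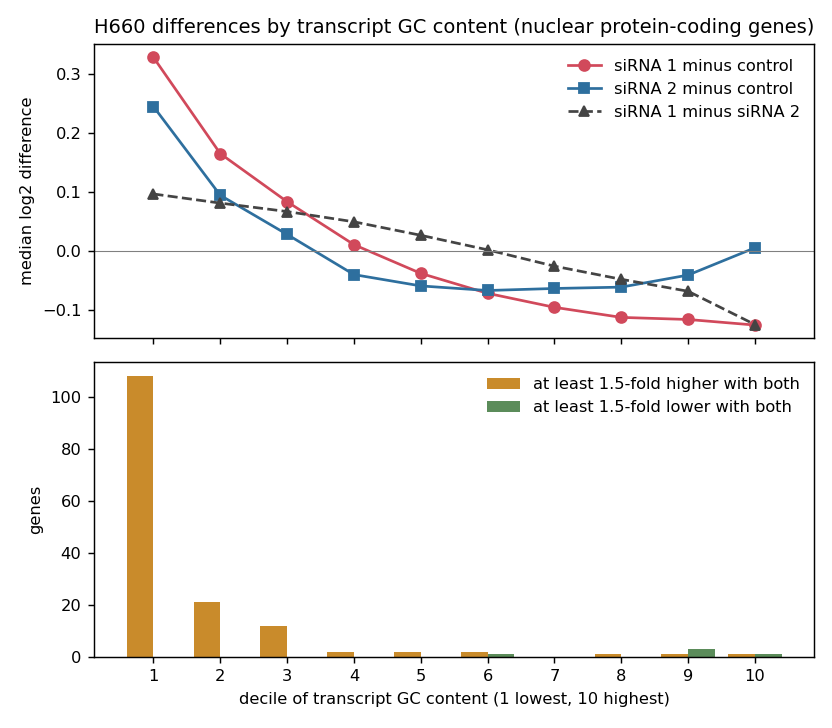
Upper panel: median log2 difference (vertical axis) of nuclear protein-coding genes in deciles of transcript GC content (horizontal axis, 1 lowest), for each siRNA against the control and for siRNA 1 against siRNA 2. Lower panel: number of genes at least 1.5-fold higher or lower with both siRNAs in each decile. The first decile has medians of 0.33 and 0.25 and holds 108 of the 150 higher genes.

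The 15 genes farthest above the control were led by SMN1, TPD52 and TMED7. SMN1 encodes the protein that assembles the small nuclear ribonucleoproteins of the spliceosome, and it was at 2.01 FPKM in the control, 9.22 with siRNA 1 and 9.37 with siRNA 2. It has a near-identical copy, SMN2, between which reads can be split in either way. The 2 copies together were at 4.41, 13.2 and 13.1 FPKM, a difference of 1.39 and 1.38. TPD52, an adaptor of vesicle traffic that is often amplified in prostate cancer, was at 15.5 FPKM in the control, 52.8 with siRNA 1 and 48.8 with siRNA 2. This difference of 1.65 ± 0.18 (SE) rested on 3139, 10177 and 10298 fragments and was 1.40 after the GC trend was taken out. TMED7, a cargo receptor of the early secretory pathway, was at 2.697, 10.6 and 9.33 FPKM, with a GC-corrected difference of 1.33.

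MZT1, a small subunit of the gamma-tubulin ring complex that nucleates microtubules, was at 5.27 FPKM in the control, 17.9 with siRNA 1 and 16.3 with siRNA 2. MOB4, of a phosphatase complex called STRIPAK, was at 2.95, 9.68 and 8.17 FPKM. Both ubiquitin-conjugating enzymes of the group followed the same order, UBE2D1 with 5.01, 15.1 and 12.6 FPKM and UBE2W with 3.39, 9.87 and 8.85 FPKM. For each of these genes both siRNA libraries were above the control, siRNA 1 the higher. LYPLA1, which removes palmitate from proteins, was at 12.9, 31.6 and 30.1 FPKM. PPP1CB, a catalytic subunit of protein phosphatase 1, was at 15.2, 37.2 and 35.1 FPKM. NECAB1, a neuronal calcium-binding protein, went from 0.271 FPKM in the control to 1.71 and 2.05 FPKM.

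IER3IP1, a small protein of the endoplasmic reticulum, was at 6.05, 14.1 and 13.98 FPKM, and GOLT1B, of Golgi transport, at 4.60, 10.2 and 10.7 FPKM. The orphan receptor GPR160 was at 5.02, 12.4 and 11.3 FPKM. GC correction lowered the mean difference of GOLT1B from 1.03 to 0.60. NPIPA7 belongs to a recently duplicated family whose reads cannot be assigned with certainty, and it was at 0.577, 2.67 and 2.58 FPKM. The mean differences of the 15 genes ran from 1.03 to 1.77 and their GC content from 32.0% to 46.4%. After GC correction 14 of the 15 stayed past 1.5-fold with both siRNAs. None passed limma, with adjusted p from 0.399 to 0.945. In C4-2B MDVR their mean differences ran from −0.23 to 0.40, with NECAB1 at 0 in all 3 libraries, but the smallest adjusted p of limma's interaction test among them was 0.976.

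**Figure D3:**
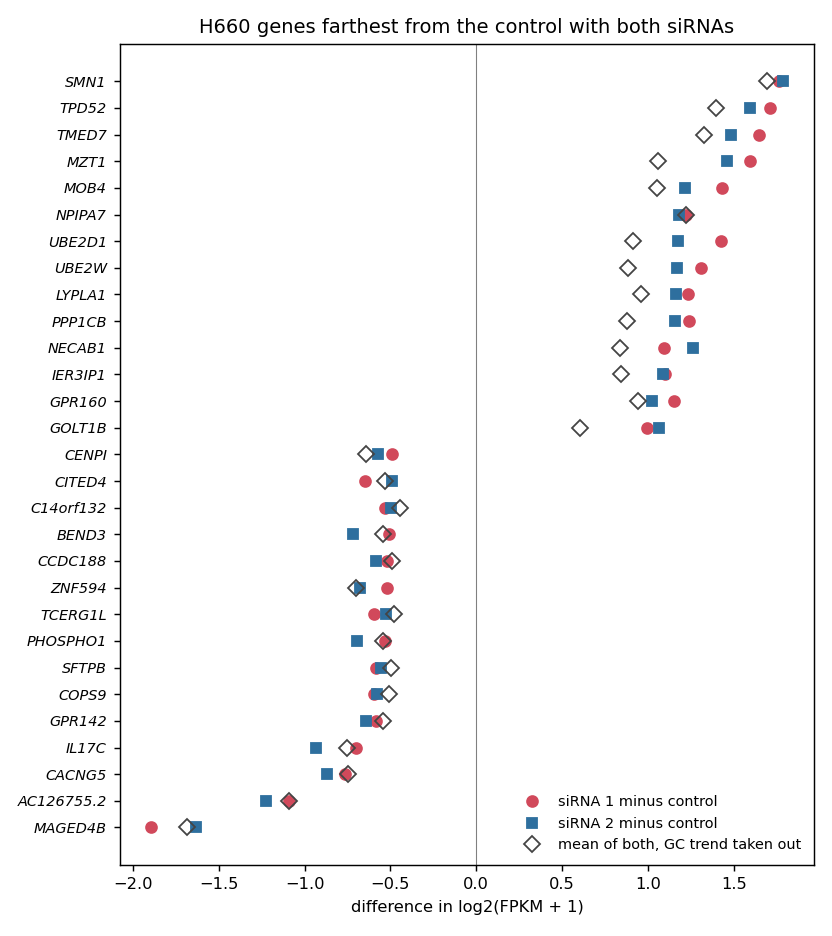
Difference from the H660 control in log2(FPKM + 1) (horizontal axis) for 14 of the 15 protein-coding genes farthest above and the 15 farthest below with both siRNAs, with the mean of both after the GC trend was taken out (open diamonds). Diamonds of the higher genes lie mostly left of the points, as for TPD52 (1.40 against 1.65), and MAGED4B is the farthest below.

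Below the control, 5 protein-coding genes passed 1.5-fold with both siRNAs. MAGED4B, of the melanoma antigen family, was at 3.71 FPKM in the control, 0.267 with siRNA 1 and 0.518 with siRNA 2. It has an almost identical copy on the X chromosome, MAGED4, and the sum of both was 4.06, 0.417 and 0.639 FPKM, from 496, 48 and 81 fragments. AC126755.2, at 4.21, 1.45 and 1.23 FPKM, shares 33.0% of its exon bases with the pseudogene PKD1P5 and is uncertain for that reason. CACNG5, an auxiliary subunit of glutamate receptors, was at 4.62, 2.30 and 2.07 FPKM. The epithelial cytokine IL17C was at 4.89, 2.62 and 2.08 FPKM and the receptor GPR142 at 5.83, 3.55 and 3.38 FPKM.

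Just short of 1.5-fold with 1 or both siRNAs were 10 further genes of the 15. SFTPB, a surfactant protein of lung epithelium that NKX2-1 is known to activate there, was the most abundant of them at 72.5 FPKM in the control, 48.0 with siRNA 1 and 49.1 with siRNA 2, and its difference was −0.57 ± 0.15 (SE). NKX2-1 itself was at 184, 149 and 169 FPKM, a difference of −0.21 that was −0.13 after GC correction. COPS9, a subunit of the COP9 signalosome, was at 7.25, 4.47 and 4.53 FPKM. C14orf132 was at 15.1, 10.1 and 10.4 FPKM and TCERG1L at 8.46, 5.25 and 5.58 FPKM. BEND3, a protein of silent chromatin, was at 7.26, 4.82 and 4.02 FPKM, and CENPI, of the inner kinetochore, at 6.76, 4.52 and 4.22 FPKM. PHOSPHO1, ZNF594, CCDC188 and CITED4 completed the 15, with control levels of 2.00 to 3.58 FPKM. Their GC content ran from 41.0% to 73.5%, and 5 of the 15 were past 1.5-fold with both siRNAs after GC correction. None passed limma, with adjusted p from 0.732 upward. In 8 of the 15 the C4-2B MDVR control was under 1 FPKM.

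Among long noncoding genes, LINC01194 was at 4.32 FPKM in the control, 9.37 with siRNA 1 and 8.30 with siRNA 2. CASC9 was at 7.19, 13.6 and 11.9 FPKM and SLC25A21-AS1 at 1.66, 3.52 and 3.27 FPKM. After GC correction the difference of LINC01194 was 0.53 in place of 0.88 and that of CASC9 0.44 in place of 0.74, both then short of 1.5-fold, while SLC25A21-AS1 was at 0.74. On the lower side HOXB-AS2, antisense in the HOXB cluster, was at 4.49, 1.96 and 2.53 FPKM, RHPN1-AS1 at 4.30, 2.55 and 2.43 FPKM and PTOV1-AS2 at 6.32, 3.16 and 4.10 FPKM. The strand of the library is not given in the sources used here. SLC25A21-AS1 and PTOV1-AS2 share 30.5% and 42.2% of their exon bases with SLC25A21 and PTOV1 on the opposite strand. Reads in the shared part cannot be told apart from those of the partner. SLC25A21 was at 1.08, 1.07 and 0.90 FPKM and PTOV1 at 23.2, 18.3 and 21.1 FPKM in the same order.

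Of the 26 gene lists described, that of the ATF4 stress response had the highest median. The integrated stress response is a pathway in which kinases that sense unfolded protein, amino acid shortage, double-stranded RNA or haem shortage phosphorylate the initiation factor eIF2. General translation then declines while the transcription factor ATF4 is made, and ATF4 with its partners raises genes of amino acid synthesis, amino acid import, tRNA charging and feedback. Of 45 genes of this pathway 43 were measured, and 40 of them lay above the control with both siRNAs, where 33.9% of all genes tested did. The cystathionine enzyme CTH was the 1 gene below with both, and ATF5 and CBS were split between the siRNAs. The median difference was 0.42, with 0.32 for siRNA 1 and 0.45 for siRNA 2, against −0.02 over all genes. No member passed limma (lowest adjusted p = 0.892), 2 were at an unadjusted p under 0.05, and both differences again share the control. The siRNA 2 library was above the siRNA 1 library for 35 of the 43 genes. The same count was not taken over all genes tested, so it is not read as particular to the list. Among protein-coding genes of 52.4% to 55.8% GC content, the median of siRNA 1 minus siRNA 2 was −0.03.

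The median GC content of the ATF4 list was 52.7%, against 36.9% for the 150 higher genes, and its members ran from 35.4% to 66.2%. Its median difference after GC correction was 0.45, with 39 genes above the control with both siRNAs. In the decile of all protein-coding genes that holds the median GC content of the list (52.4% to 55.8%) the medians were −0.10 and −0.06. Members were put on the list with earlier results of these data known, and the part of GC content in their differences was not tested.

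Promoters of this list are shown because ATF4, as a dimer with C/EBP proteins, binds a composite element whose common form reads TTNCATCA, or TGATGNAA on the other strand. In the RefSeq promoter table of GRCh38.p14, which takes 250 bases before to 50 bases after each start, 1 of these 2 forms was found in 13 of 56 windows of the measured list members (23.2%), in 1.73% of the windows of protein-coding genes tested, and in 3.62% of all windows. By gene, 13 of 35 matched members (37.1%) and 2.34% of the tested genes held it. Genes were put on the list as known targets of ATF4, so the element does not bear on the difference measured here. The stretch from 250 to 51 bases before the start is given for 2 genes of different roles, with the element in capitals: ASNS, asparagine synthetase (chr7:97872459-97872658, minus strand), and SLC1A5, a glutamine transporter (chr19:46784865-46785064, minus strand).
ASNS: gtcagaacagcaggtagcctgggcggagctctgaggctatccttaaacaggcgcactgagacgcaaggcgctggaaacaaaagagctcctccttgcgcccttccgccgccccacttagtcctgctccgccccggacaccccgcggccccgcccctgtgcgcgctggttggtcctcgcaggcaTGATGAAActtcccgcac
SLC1A5: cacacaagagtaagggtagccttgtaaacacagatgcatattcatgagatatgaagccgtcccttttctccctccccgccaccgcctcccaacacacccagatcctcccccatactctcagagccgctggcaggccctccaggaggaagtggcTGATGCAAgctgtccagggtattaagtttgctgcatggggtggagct
In the windows shown, the element starts 68 bases before the start in ASNS and 97 in SLC1A5, in both in the form TGATGNAA. Both genes have further listed starts, whose windows held neither form. The SLC1A5 start shown is the farthest downstream of those listed. ASNS was at 1.04 FPKM in the control, 1.16 with siRNA 1 and 1.56 with siRNA 2, and SLC1A5 at 48.1, 59.7 and 66.2 FPKM.

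Regulators of the pathway came first in size, with 10 of 11 above the control with both siRNAs and a median of 0.52. DDIT3, the transcription factor CHOP, was at 41.9 FPKM in the control, 68.3 with siRNA 1 and 78.0 with siRNA 2. Its exons share 27.2% of their bases with MARS on the opposite strand, so part of its reads could be from MARS. The pseudokinase TRIB3, which restrains the response, was at 13.6, 20.6 and 25.01 FPKM, and SESN2, an inhibitor of mTORC1 signalling, at 9.07, 14.2 and 15.2 FPKM. ATF4 itself, which is controlled mainly through its translation, was at 133, 150 and 163 FPKM. ATF3 was at 19.4, 27.7 and 25.5 FPKM, CEBPB at 103, 131 and 166 FPKM and CEBPG at 39.8, 58.3 and 60.2 FPKM. PPP1R15A, which returns eIF2 to its active form, was at 14.8, 16.4 and 16.4 FPKM.

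Of the enzymes, 9 of 11 were above with both siRNAs (median 0.43). That median is the mean difference of CBS, which was −0.31 with siRNA 1 and 1.16 with siRNA 2. Reads of CBS can be split with its near-identical copy CBSL. CHAC1, which breaks down glutathione, was at 2.63, 4.88 and 5.96 FPKM. PSAT1 and PHGDH, of serine synthesis, were at 33.9, 55.2 and 61.4 FPKM and at 19.6, 26.7 and 29.5 FPKM. The mitochondrial folate enzymes MTHFD2 and SHMT2 were at 39.8, 52.7 and 62.1 FPKM and at 97.9, 119 and 138 FPKM. All 7 amino acid transporters were above with both (median 0.45). SLC7A11, the cystine importer, was at 3.26, 6.29 and 6.79 FPKM, but its low GC content gave a smaller GC-corrected difference, 0.50 against 0.82. SLC7A5 and its partner SLC3A2 were at 18.5, 25.1 and 28.7 FPKM and at 54.4, 71.3 and 78.2 FPKM.

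All 12 aminoacyl-tRNA synthetase and tRNA export genes were above with both siRNAs, with a median of 0.36 and a range from 0.14 to 0.59. SARS, the synthetase for serine, was the highest at 44.2, 60.9 and 73.8 FPKM, and EPRS the lowest at 37.2, 41.8 and 40.4 FPKM. Of the 43 genes 5 passed 1.5-fold with both siRNAs, namely SLC7A11, CHAC1, DDIT3, PSAT1 and SESN2, where 1.86% of all genes did. The rule for named genes takes SLC7A11, CHAC1, DDIT3 and PSAT1 from this list, and the other members were chosen by role after their values were seen. In C4-2B MDVR the median of the same list was 0.26, with 23 of 43 genes above with both siRNAs. No member differed between lines by limma's interaction test (lowest adjusted p = 0.980).

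**Figure D4:**
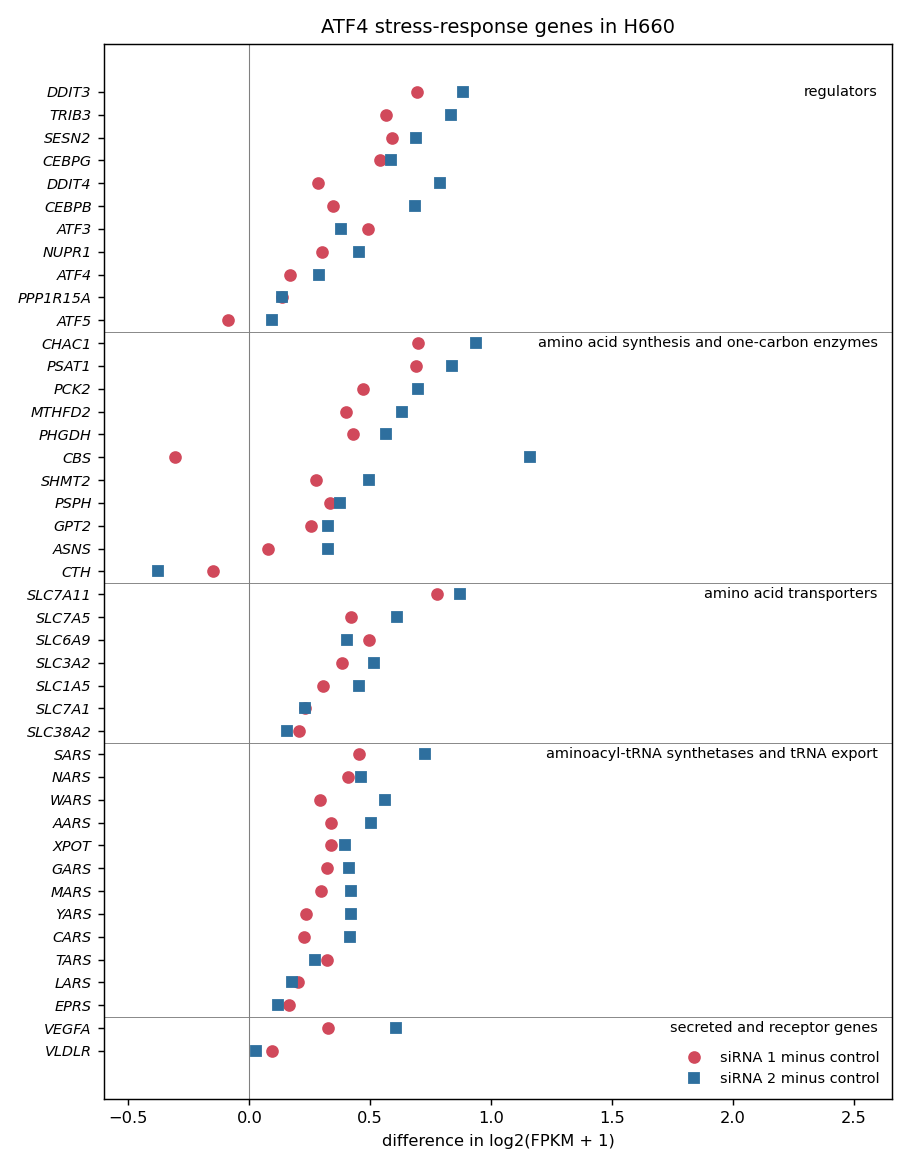
Difference from the H660 control in log2(FPKM + 1) (horizontal axis) for the 43 measured genes of the ATF4 stress response, by role, with 1 point for each siRNA. Both points are right of 0 for 40 genes and left of 0 for CTH. The siRNA 2 point is the higher for 35 genes, a count not taken over all genes tested.

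Neighbouring pathways of protein stress and transport were less uniform. For the counts of these and later lists, 33.9% of all genes tested lay above the control with both siRNAs and 39.2% below. Of 32 genes of endoplasmic reticulum chaperones and degradation 31 were measured, 21 of them above with both siRNAs and 3 below, with a median of 0.15 and a GC-corrected median of 0.12. XBP1, the transcription factor of the unfolded protein response, was at 38.4 FPKM in the control, 48.8 with siRNA 1 and 53.4 with siRNA 2. HERPUD1, of protein degradation, was at 6.77, 9.36 and 10.4 FPKM, the co-chaperone DNAJB9 at 3.57, 5.26 and 6.13 FPKM and the oxidase ERO1B at 5.15, 8.79 and 9.30 FPKM, with a difference of 0.71 that was 0.44 after GC correction. In the early secretory pathway 25 of 43 measured genes were above and 7 below, with a median of 0.07, and 3 were past 1.5-fold: TPD52, TMED7 and TMED5, the last at 3.04, 6.66 and 6.35 FPKM. The coat subunit COPA, at 53.9, 44.9 and 42.5 FPKM, was on the other side.

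Among 25 measured targets of p53, 12 were above and 8 below with both siRNAs, and the median of 0.04 turned to −0.03 without siRNA 2. PMAIP1, the BH3-only protein NOXA, was at 32.5 FPKM in the control, 61.9 with siRNA 1 and 59.7 with siRNA 2, and the cyclin CCNG1 at 19.8, 31.5 and 30.5 FPKM. Their GC-corrected differences were 0.63 and 0.40, from 0.88 and 0.62. The list median was 0.03 after that correction. GDF15, a stress cytokine, was at 584, 843 and 1018 FPKM. PMAIP1 and GDF15 are known targets of ATF4 also. TP53I3 was at 2.80, 1.82 and 1.73 FPKM. The list thus held members on both sides.

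Genes of the neuroendocrine state were close to the control. Of 27 transcription factors of that state 15 were measured, with 9 above and 3 below with both siRNAs. Their median of 0.04 turned to −0.02 with genes of at least 5 FPKM only and was 0.01 after GC correction. HES6 was at 128, 107 and 141 FPKM and SOX2, a factor of stem and neuroendocrine cells, at 102, 119 and 134 FPKM. Of 29 measured secretory and synaptic genes 9 were above and 13 below, with a median of −0.03. UCHL1 was at 170, 189 and 179 FPKM, the surface antigen CEACAM5 at 146, 127 and 122 FPKM and the microtubule regulator STMN1 at 130, 125 and 124 FPKM. None of either list was past 1.5-fold with both siRNAs. The luminal list had 22 measured genes with a median of −0.01 (0.01 after GC correction), and KRT8, a simple-epithelial keratin, was at 236, 260 and 270 FPKM.

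In the machinery on which the siRNAs act, 10 of 15 genes were below the control with both siRNAs and 2 above, with a median of −0.10 that was −0.14 after GC correction. Over all genes tested, 39.2% were below with both and 33.9% above. DROSHA, the nuclear microRNA-processing enzyme, was at 10.5 FPKM in the control, 8.75 with siRNA 1 and 8.23 with siRNA 2. AGO1, an Argonaute protein that holds the guide strand, was at 4.21, 3.36 and 3.26 FPKM, while TSNAX, of a nuclease that aids guide loading, was at 5.39, 10.7 and 8.79 FPKM, with a difference of 0.75 that GC correction lowered to 0.46. Interferon-response genes, which double-stranded RNA can induce, had 13 of 31 above and 8 below, with a median of 0.02 (0.04 after GC correction). IFIT5 was at 2.57, 4.03 and 3.31 FPKM (GC-corrected difference 0.14), OAS1 at 14.5, 17.5 and 18.8 FPKM and BST2 at 2.13, 1.10 and 1.46 FPKM.

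Of 13 mitochondrially encoded protein genes 12 were above the control with both siRNAs, with a median of 0.14 and differences from −0.05 to 0.45. MT-CO1, a subunit of cytochrome oxidase, was at 12473 FPKM in the control, 13102 with siRNA 1 and 12935 with siRNA 2. With quantile normalization its mean difference was −0.14. The share of fragments on mitochondrial genes, given above, lay on the same side, and its part in this difference was not tested.

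Lists of growth and metabolism lay near or slightly below the control. In G1 and S phase 19 of 31 genes were below and 4 above (median −0.06, or −0.04 after GC correction), with thymidylate synthase TYMS at 24.2 FPKM in the control, 19.0 with siRNA 1 and 19.5 with siRNA 2. Mitotic genes went both ways. CDK1, the mitotic kinase, was at 41.7, 59.8 and 61.2 FPKM and the proliferation marker MKI67 at 22.3, 18.3 and 15.7 FPKM, and the list median of −0.03 turned to 0.03 without siRNA 2. The difference of CDK1 was 0.53, and 0.26 after GC correction. Of 12 measured receptor kinases 9 were below (median −0.13), with FGFR3 at 3.38, 2.16 and 2.30 FPKM and ERBB3 at 45.3, 38.5 and 37.9 FPKM. After GC correction the median of the receptor kinases was −0.06 and 6 were below with both siRNAs. Of 31 measured genes of sterol and fatty acid synthesis 17 were below and 7 above (median −0.12), with the regulator SREBF2 at 20.8, 15.6 and 16.5 FPKM and the enzyme SC5D at 35.8, 55.6 and 49.4 FPKM (GC-corrected difference 0.34).

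Chromatin and Notch genes had single members far from their list. BMI1, a subunit of Polycomb repressive complex 1, was at 4.01 FPKM in the control, 10.1 with siRNA 1 and 7.98 with siRNA 2, and its partner RNF2 at 4.45, 6.73 and 7.08 FPKM (GC-corrected difference 0.31). The maintenance methyltransferase DNMT1 was at 53.9, 44.4 and 41.5 FPKM, and the median of the 26 genes was −0.09, or −0.05 after GC correction. HES1, a transcriptional repressor downstream of Notch, was at 9.03, 16.0 and 14.3 FPKM, in a list of 16 with a median of −0.05, or −0.01 after GC correction. It kept a GC-corrected difference of 0.75, and BMI1 one of 0.82. Neither passed limma.

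**Figure D5:**
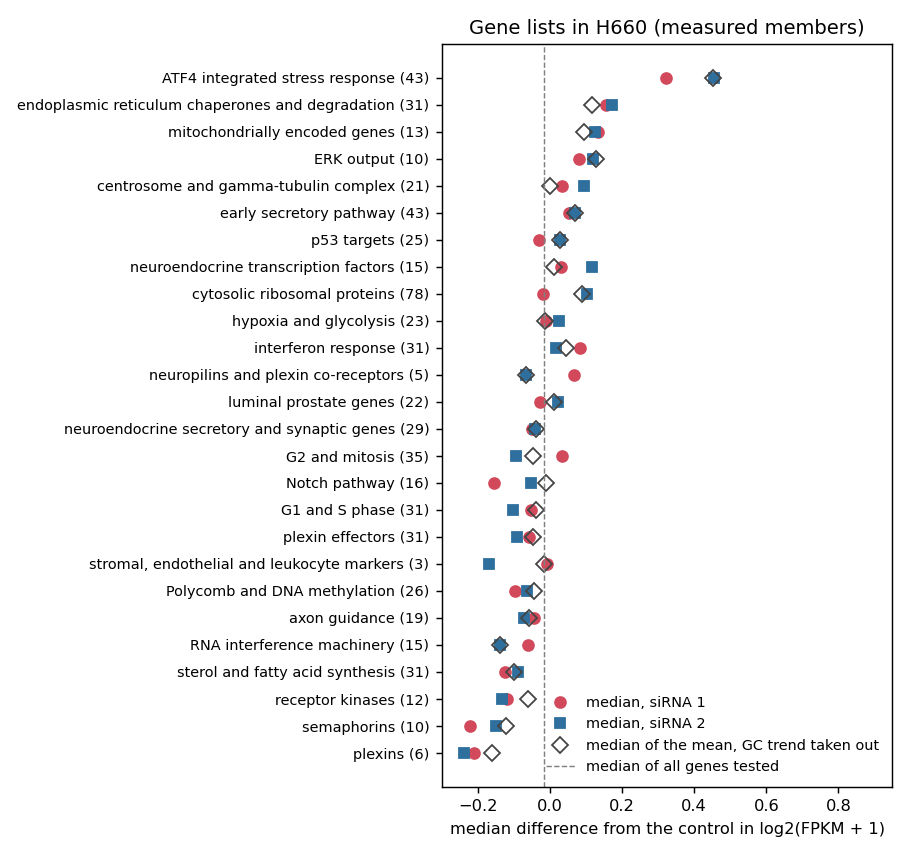
Median difference from the H660 control in log2(FPKM + 1) (horizontal axis) of the measured members of 26 gene lists, for each siRNA and after the GC trend was taken out of the mean of both. The number of measured members is in brackets, and the dashed line is the median of all genes tested (−0.02). The ATF4 list is the highest (0.32 and 0.45), and the semaphorins and plexins are lowest in the order of the mean of both siRNAs.

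The 2 siRNAs differed from each other by at least 1.5-fold for 73 of the 11335 protein-coding genes, with siRNA 1 the higher in 21 and siRNA 2 in 52. Within H660 this has no test, since each siRNA has 1 library, and a test across both lines was not run. LY96, a co-receptor of lipopolysaccharide sensing, was at 7.32 FPKM in the control, 7.43 with siRNA 1 and 15.03 with siRNA 2, and its mean difference of 0.48 from the control was 0.10 after GC correction. NRTN, a ligand of the RET receptor complex, was at 17.7, 7.87 and 15.8 FPKM, and the neuropeptide NMU at 3.56, 3.36 and 1.23 FPKM. Part of the largest differences concerned genes with near-identical copies. BOLA2B was at 0.09, 15.1 and 0.17 FPKM. EIF3CL was at 0.27, 5.23 and 0.54 FPKM. Together with its copy EIF3C it held 524 fragments in the control, 507 with siRNA 1 and 377 with siRNA 2. These numbers are not scaled to library size, and by them the pair was higher with siRNA 1 than with siRNA 2. From the summed FPKM of the pair, the difference from the control was 0.74 with siRNA 1 and −0.30 with siRNA 2. With siRNA 1 the pair did not hold more fragments than in the control, however. FPKM divides the fragments of each copy by its own exon length, so the sum also depends on the copy they are assigned to. The value of 0.74 is therefore not shown to be a rise of the pair. CBS was at 1.78, 1.25 and 5.21 FPKM while its copy CBSL was at 1.91, 2.69 and 0.26 FPKM.

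No gene differed in its response between H660 and C4-2B MDVR by limma's interaction test, in which 0 of the 13946 genes passed (lowest adjusted p = 0.224) and 627 were at an unadjusted p under 0.05. With voom on recovered fragments 0 passed and 756 were at an unadjusted p under 0.05.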

How the data were processed

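Messenger RNA of 3 H660 and 3 C4-2B MDVR libraries was sequenced in pairs of 150-base reads (labels' protocols). HISAT, Cufflinks and hg18 are named, without versions, in the submitters' processing notes. The deposited values are FPKM computed by the authors for 58735 Ensembl IDs, all of them found in GENCODE 29 (GRCh38), which gave names, exon lengths, overlaps and coordinates.

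FPKM times exon length gave whole fragments, within 0.05, for all genes checked (up to 100 fragments). The log2(FPKM + 1) values went into limma 3.58.1 under R 4.3.3 (intensity trend, two-sided, Benjamini-Hochberg threshold 0.05) over the 13946 genes averaging 1 FPKM or more in H660. The fit had 4 groups and 2 residual degrees of freedom, so the spread comes from the 2 knockdown pairs and is taken to hold for the controls. Beside it, a rule of size counted genes at least 1.5-fold from the control with both siRNAs. GC content is of 1 transcript per gene, and its trend was removed by loess.

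Members and lists were chosen with earlier results of these data known. Named genes are PLXND1, the 15 protein-coding genes each way with the largest smaller difference (at least 50 fragments), up to 3 long noncoding genes each way, up to 4 per list, and 5 each way between siRNAs. Alternatives were other pseudocounts, filters, scalings, samples, a replicate block and voom. siRNA numbers were not taken as pairing the samples (correlation across lines −0.01). Lists named in the plot but not in the text are axon guidance, ERK output, centrosome, hypoxia and ribosomal proteins, with medians of −0.09, 0.10, 0.10, 0.02 and 0.03. The ERK median turned to −0.05 at a mean FPKM of at least 5, the hypoxia median to −0.01 without siRNA 2 and after GC correction, and the ribosomal one to −0.02 without siRNA 2. After GC correction axon guidance was at −0.06, the centrosome list near 0 and the ribosomal list at 0.09. A few genes and 2 sequences that these rules take are not reported here.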

Additional observations from a re-analysis of the deposited data

How the results depend on the processing

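With 1 control library, counts of genes depend strongly on the settings. The 1 gene passing limma became 2 with a pseudocount of 0.1, 2 with quantile normalization, 3 with the H660 libraries alone and 2 with siRNA number as replicate block, 620 with no filter on low values, and 0 with short RNAs and mitochondrial genes left out, with voom, with the GC trend taken out, or with that and the replicate block. Without 1 knockdown library it ranged from 4 to 100, the highest counts (91 and 100) when an H660 library was left out and 1 residual degree of freedom from C4-2B MDVR remained. The 259 genes at least 1.5-fold higher became 472 with pseudocount 0.1, 125 at a mean FPKM of at least 5, 473 with voom, 147 with GC taken out, and 487 to 545 without 1 siRNA. The 109 lower genes became 225, 8 and 253 with the first 3 of these, 454 with no filter, 203 with quantile normalization and 286 to 357 without 1 siRNA. For protein-coding genes the 150 higher became 256 (pseudocount 0.1), 257 (voom), 51 (GC) and 202 to 276 without 1 siRNA. The 5 lower became 20 (pseudocount 0.1), 0 (FPKM of at least 5), 25 (quantile), 32 (voom) and 32 to 50 without 1 siRNA. The 0 genes differing between lines became 1 (pseudocount 0.1), 1 (FPKM of at least 5), 262 (no filter) and 3 to 57 without 1 library. PLXND1 stayed between −0.17 and −0.28 and did not pass under any alternative; with the replicate block it was −0.24. The ATF4 median ranged from 0.32 to 0.45 without 1 siRNA. Of 117 genes named, 6 reversed: ATF5 was −0.012 with quantile normalization, −0.011 with rescaling and −0.0097 with voom, MT-CO1 −0.14 with quantile normalization, and, without siRNA 1 or siRNA 2, ITGB1 ran from −0.066 to 0.066, ATF5 from −0.089 to 0.095, CBS from −0.31 to 1.16, HES6 from −0.26 to 0.14 and CBSL from −1.20 to 0.34. MT-TR did not pass without either siRNA, with voom, or with GC taken out, NECAB1 passed without either siRNA (1.26 and 1.09), and PMAIP1 with no filter. Apart from the changes of the transcript set or samples, the causes were not tested.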
